A study of Mus musculus with 22 samples.

Results

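The clustered protocadherin genes of the mouse lie in 3 neighbouring clusters, alpha, beta and gamma, on the plus strand of chromosome 18. They were taken here as every gene whose symbol is *Pcdha*, *Pcdhb*, *Pcdhga*, *Pcdhgb*, *Pcdhgc* or *Pcdhac* followed by a number in GENCODE mouse release M21 on GRCm38, which gave 58 identifiers: 14 alpha, 22 beta and 22 gamma. By that annotation the alpha cluster spans chr18:36930184-37187661, the beta cluster chr18:37264938-37524479 and the gamma cluster chr18:37661793-37841873. Counts could be matched for 24 of the 58, among 39179 gene identifiers in the tables. These 24 are all 22 beta genes, 1 alpha identifier (ENSMUSG00000007440, named *Pcdha11* in M21) and 1 gamma identifier (ENSMUSG00000023036, named *Pcdhgc4*). The other 34 identifiers, 13 alpha and 21 gamma, were not analysed here. All 34 are numbered above the highest identifier in the tables, which were counted on the older Ensembl release 75. What stretch the alpha and the gamma identifier covered in release 75 is not given in the sources used here, and each may have taken reads of several isoforms. They are therefore called the alpha row and the gamma row, and their values are not read as those of *Pcdha11* or *Pcdhgc4*, nor compared per length.

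Clustered protocadherins are cell-surface proteins of the cadherin superfamily that bind copies of the same isoform on a facing membrane. Each alpha and gamma variable exon has its own promoter and is spliced to a constant region shared within its cluster, whereas each beta gene codes for a whole isoform in a single exon. Single neurons switch on a small, largely random set of these promoters through loops held by CTCF and cohesin, and the resulting surface identity lets branches of a neuron recognise and avoid each other and shapes axon territories.

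RNA was sequenced from 22 samples of B6x129SvJ mice or cells, WT or carrying a *Phf8* KO allele that lacks a pair of exons of the catalytic domain. *Phf8* encodes an X-linked histone demethylase. The groups were embryonic stem cells (ESC; 2 WT and 2 KO) grown from blastocysts on gelatin or feeder cells, neural progenitor cells (NPC; 3 and 3) from E16.5 embryos grown as a monolayer, and ventral striatum (STR; 3 and 3) and prefrontal cortex (PFC; 3 and 3) of mice aged 2 months. The question asked of the counts was how the 3 clusters are expressed across these tissues and whether *Phf8* KO samples differ from WT. The KO allele came from clonally expanded targeted ESCs, and nothing in the labels says whether same-group samples came from separate animals or cultures, so p-values measure the spread between these samples only.

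Gene counts summed to 5898286 in the shallowest and 15539811 in the deepest library. *Phf8* itself was lower in every KO than in every WT sample of its tissue, with log2 fold changes between -1.79 and -1.37, past an FDR of 0.05 in PFC (0.00193) and NPC (0.0285) but not in STR (0.0956) or ESC (1.0). Some libraries stood apart on marker genes of other cell types. In ESC replicate 2 of both genotypes, all 6 fibroblast markers were above replicate 1, and their summed level was 3647 (WT) and 4430 CPM (KO) against 167 and 158 CPM in replicate 1. In NPC replicate 2 of both genotypes, the 5 oligodendrocyte markers summed to 39.8 (WT) and 168 CPM (KO). The other NPC samples held 1367 to 2362 CPM, STR samples 1180 to 1474 CPM and PFC samples 1211 to 1953 CPM. Values without NPC replicate 2 thus rest on the NPC samples with more oligodendrocyte marker RNA. STR KO replicate 1 held 127 CPM of 7 hypothalamus markers, against 1.80 to 17.1 CPM in the other STR samples. It held 69.0 CPM of 5 cortex markers against 366 to 550 CPM, and 1019 CPM of 6 striatum markers against 1200 to 1389 CPM. PFC samples held 865 to 1097 CPM of the cortex markers. The part of cortex RNA in the STR values was not tested. PFC WT and KO also differed on glial markers, as given with the KO results. The main values that rest on the libraries standing apart are followed by their values without them.

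The members were first compared by tissue. Levels are CPM, the share of a library's gene counts taken by a gene, after TMM scaling over all 22 samples. The 22 beta genes together gave 1.42 and 9.67 CPM in WT ESCs and 1.26 and 9.70 CPM in KO ESCs, from 14, 112, 14 and 98 reads. WT NPCs gave 192, 368 and 227 CPM and KO NPCs 204, 348 and 228 CPM. The sum was 311, 305 and 349 CPM in WT STR, 350, 312 and 354 CPM in KO STR, 274, 295 and 284 CPM in WT PFC and 324, 286 and 265 CPM in KO PFC. Beta reads were thus scarce in all 4 ESC samples, and the other 3 tissues overlapped in their summed beta level on this scale. The overlap of NPC with STR and PFC came from NPC replicate 2, at 368 CPM in WT and 348 CPM in KO. The other NPC samples, at 192 to 228 CPM, lay below every STR (305 to 354) and every PFC sample (265 to 324). As CPM of the unscaled library totals NPC and STR did not overlap with all samples kept. NPC then stood at 167 to 336, STR at 349 to 406 and PFC at 287 to 352. In bulk RNA a lower level in fewer cells and a lower level in every cell cannot be told apart, nor can tissue be told apart from the preparation and counting of its libraries.

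The alpha row followed a different order. It stood at 0.720 to 2.77 CPM in ESCs and at 82.6, 38.9 and 90.9 CPM in WT NPCs. WT STR held 159, 195 and 178 CPM and WT PFC 242, 230 and 233 CPM. Over both genotypes the ranges of the 4 tissues did not overlap, running from ESC through NPC (38.9 to 98.2 CPM) and STR (159 to 205 CPM) to PFC (230 to 257 CPM).

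The gamma row was the most abundant of the 24 in every sample. It gave 104 and 186 CPM in WT ESCs, 2141, 1964 and 2036 CPM in WT NPCs, 478, 509 and 462 CPM in WT STR and 487, 486 and 466 CPM in WT PFC. It was high in all 6 NPC samples (1964 to 2141 CPM) and overlapped between STR (462 to 576 CPM) and PFC (466 to 550 CPM).

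**Figure D1:**
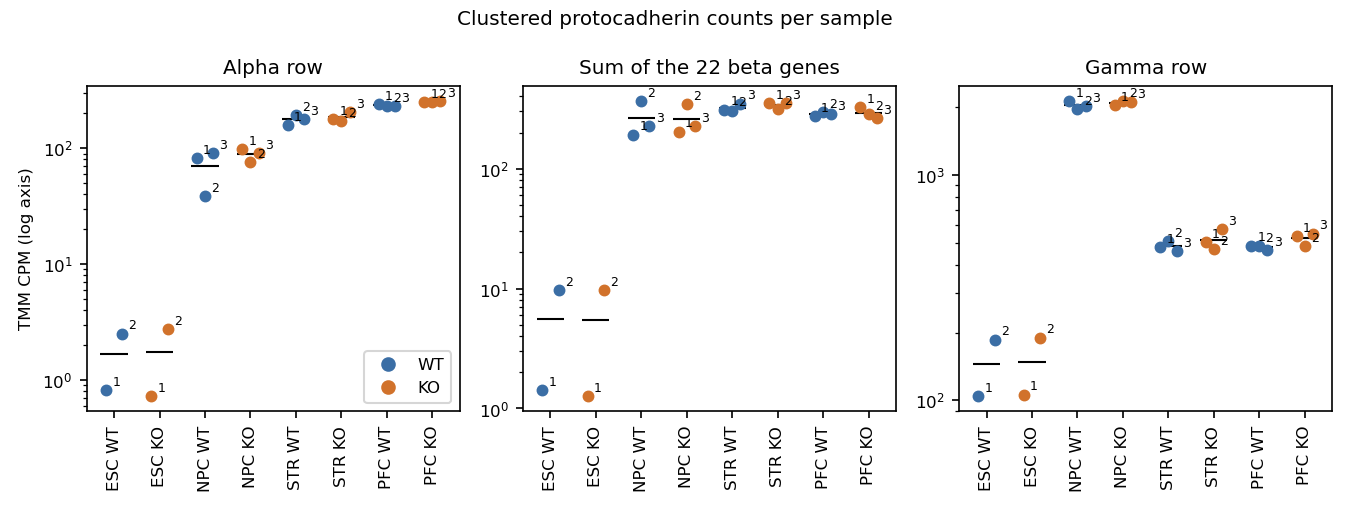
TMM CPM on a log axis for the alpha row, the sum of the 22 beta genes and the gamma row in each sample, by tissue and genotype (blue WT, orange KO); points carry the replicate number and bars are group means. The alpha row was highest in PFC (230 to 257 CPM), the gamma row in NPC (1964 to 2141 CPM), and ESC replicate 2 sat above replicate 1 in all 3 panels.

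In ESCs most beta genes were at or near the counting limit. *Pcdhb1*, *Pcdhb8* and *Pcdhb10* had no read in either WT sample, and 9 further beta genes had 1 to 3 reads over both. In KO ESCs 6 beta genes had no read and 6 had 1 to 3. The alpha row had 37 reads in WT and 36 in KO ESCs, whereas the gamma row had 3169 and 3093. The beta genes best seen there were *Pcdhb17*, with 2 and 24 reads in WT and 2 and 22 in KO ESCs, and *Pcdhb22*, with 3 and 19 in WT and 4 and 20 in KO.

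In both genotypes the larger count fell in ESC replicate 2. Of the 22 beta genes, 14 were above replicate 1 in replicate 2 of both genotypes and none was below it in both. The alpha row was 0.814 and 2.51 CPM in WT replicates 1 and 2 and 0.720 and 2.77 CPM in the KO ones. The 6 fibroblast markers, none of them at 0 in any ESC sample, moved with these values, at 167 to 3647 CPM in WT and 158 to 4430 CPM in KO ESCs. The 5 pluripotency markers summed to 4168 and 3464 CPM in WT and 4167 and 3296 CPM in KO. The part of fibroblast RNA in the ESC beta counts was not tested.

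NPCs were set against ESCs to ask how far the clusters are expressed before and after neural commitment. In WT samples 23 of the 24 rows were tested, *Pcdhb1* (3 reads in all WT NPCs) failing the filter, and all 23 were called higher in NPCs (edgeR quasi-likelihood test, Benjamini-Hochberg FDR under 0.05), where 34.6% of all genes were called higher and 36.6% lower (71.2% in all). In KO samples the same 23 were called higher, against 34% of all genes higher and 37.1% lower (71.1% in all). Most of these genes passed the filter only through their NPC counts, so that this number is a description and not support for a difference.

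The gamma row rested on many reads in both cell types and rose by a log2 difference of 3.92 (SE 0.31, FDR 3.2e-04) in WT. Its pooled ratio was 13.8-fold in WT (95% counting interval 13.4 to 14.3) and 14.4-fold in KO (13.9 to 14.9). The alpha row was 42.1-fold higher in WT NPCs (30.6 to 59.8) and 52.0-fold in KO (37.6 to 74.3). Against ESC replicate 1 alone, without the library that carried the fibroblast markers, the gamma row was 19.8-fold higher in WT (18.6 to 21) and 19.9-fold in KO (18.8 to 21.1), and the alpha row 89.5-fold in WT (45.4 to 207) and 123-fold in KO (62.2 to 284). Among the beta genes with 10 or more reads in WT ESCs, the ratio lay between 13.4-fold for *Pcdhb22* (8.82 to 21.3) and 30.3-fold for *Pcdhb16* (17.3 to 58.6). These beta genes reached 10 reads only through ESC WT replicate 2. Against replicate 1 alone *Pcdhb22*, with 3 reads there, was 45.0-fold higher (15.4 to 218), and *Pcdhb16*, with none, at least 55.6-fold. Against ESC groups with no read, *Pcdhb10* was at least 76.2-fold and *Pcdhb8* at least 32.1-fold higher in WT NPCs, with 3 reads over the ESC samples used as the floor. These intervals cover counting error only.

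Leaving out ESC replicate 2, which carried the fibroblast markers in both genotypes, left a single library in the ESC group. Most rows also passed the filter only through their NPC counts, so the number of calls in such fits cannot show whether the difference depends on that library. The ratios without it are those given above. With a filter of at least 10 reads in every sample, the gamma row alone could be tested in either genotype, and it was called higher in both.

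**Figure D2:**
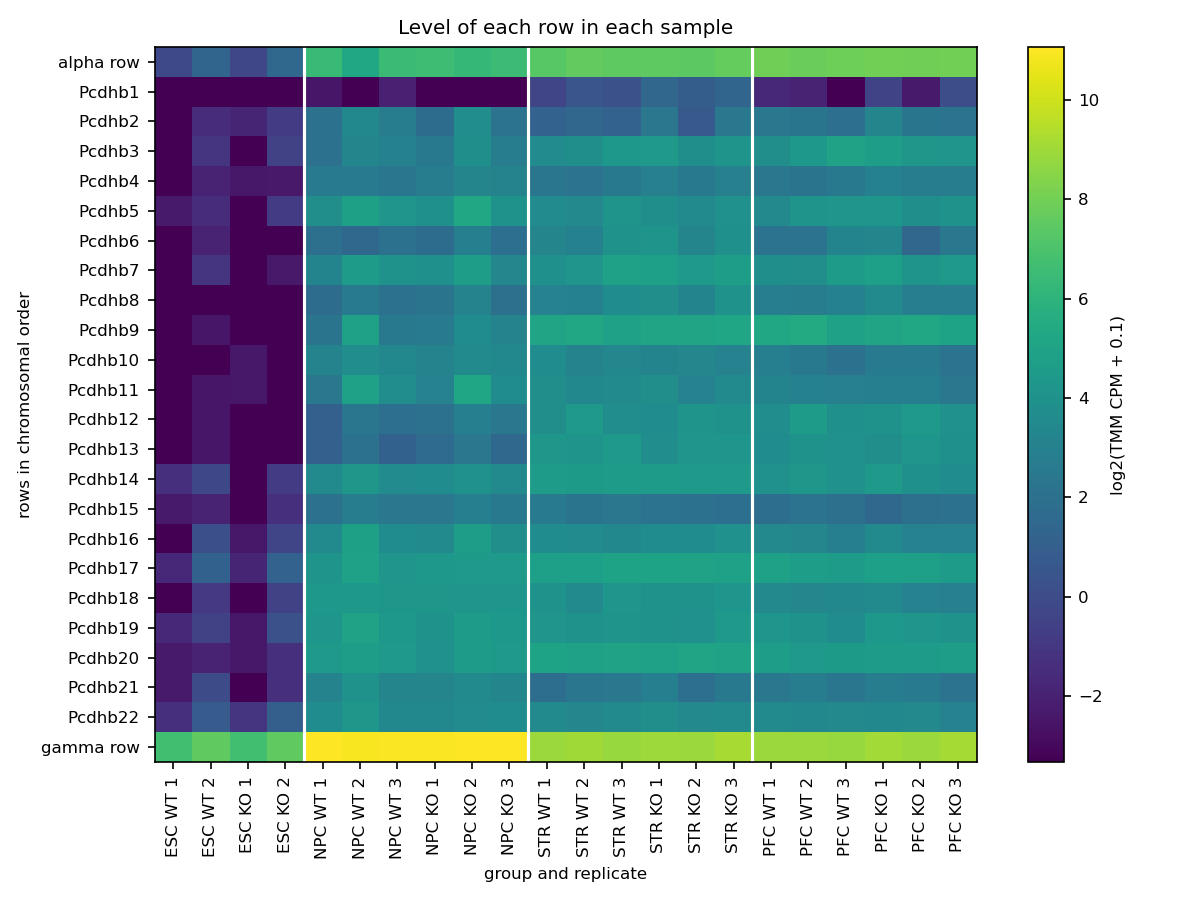
Level of the 24 rows, in chromosomal order, in each of the 22 samples, as log2 of TMM CPM plus 0.1 (colour scale). The ESC columns are dark for the beta genes (summed beta 1.26 to 9.70 CPM), *Pcdhb1* is dark outside STR and KO PFC, and NPC replicate 2 of both genotypes is brighter than its neighbours at *Pcdhb9* and *Pcdhb11*.

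Beta genes were then compared with each other, per kilobase of exon not shared with another listed gene (CPM per kb). Of the 22, 21 had at least 10 reads in each NPC and PFC sample, and 21 or 22 in each STR sample. In WT NPCs *Pcdhb20* led, at 5.97, 7.22 and 5.96 CPM per kb, followed by *Pcdhb5* (3.89, 8.05 and 5.15) and *Pcdhb7* (2.56, 6.97 and 4.80). These 3 overlapped, so their order within NPCs was not separated by the samples. Without replicate 2, *Pcdhb20* at 5.97 and 5.96 lay above both *Pcdhb5* values in WT, while in KO the ranges of these genes overlapped (4.35 to 5.85 and 4.20 to 4.78).

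In WT STR *Pcdhb9* led, at 10.9, 13 and 9.98 CPM per kb. *Pcdhb20* followed at 9.26, 8.42 and 8.83, below every *Pcdhb9* value, and *Pcdhb17* at 5.89, 5.89 and 6.98, below every *Pcdhb20* value. *Pcdhb7*, at 4.25 to 8.53, overlapped both *Pcdhb20* and *Pcdhb17*. In WT PFC *Pcdhb9* stood at 13.1, 14.4 and 9.85 CPM per kb, above every other beta gene in every sample. *Pcdhb20* (7.32, 6.03 and 6.52) and *Pcdhb17* (6.32, 5.73 and 5.35) came next by mean and overlapped. *Pcdhb3* (3.66 to 8.23), *Pcdhb12* (4.42 to 8.08) and *Pcdhb7* (3.94 to 6.71) overlapped both, so the order below *Pcdhb9* was not separated by the samples.

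*Pcdhb1*, the first gene of the cluster, was lowest in all 3 tissues, at 0.0294 ± 0.0284 CPM per kb (SD, n = 3) in WT NPCs, 0.394 ± 0.114 in WT STR and 0.0508 ± 0.0449 in WT PFC. No gene dominated the cluster. In NPC, STR and PFC samples the most abundant 3 beta genes together made up 24.6% to 34.8% of the beta reads, and the remaining genes shared the rest.

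**Figure D3:**
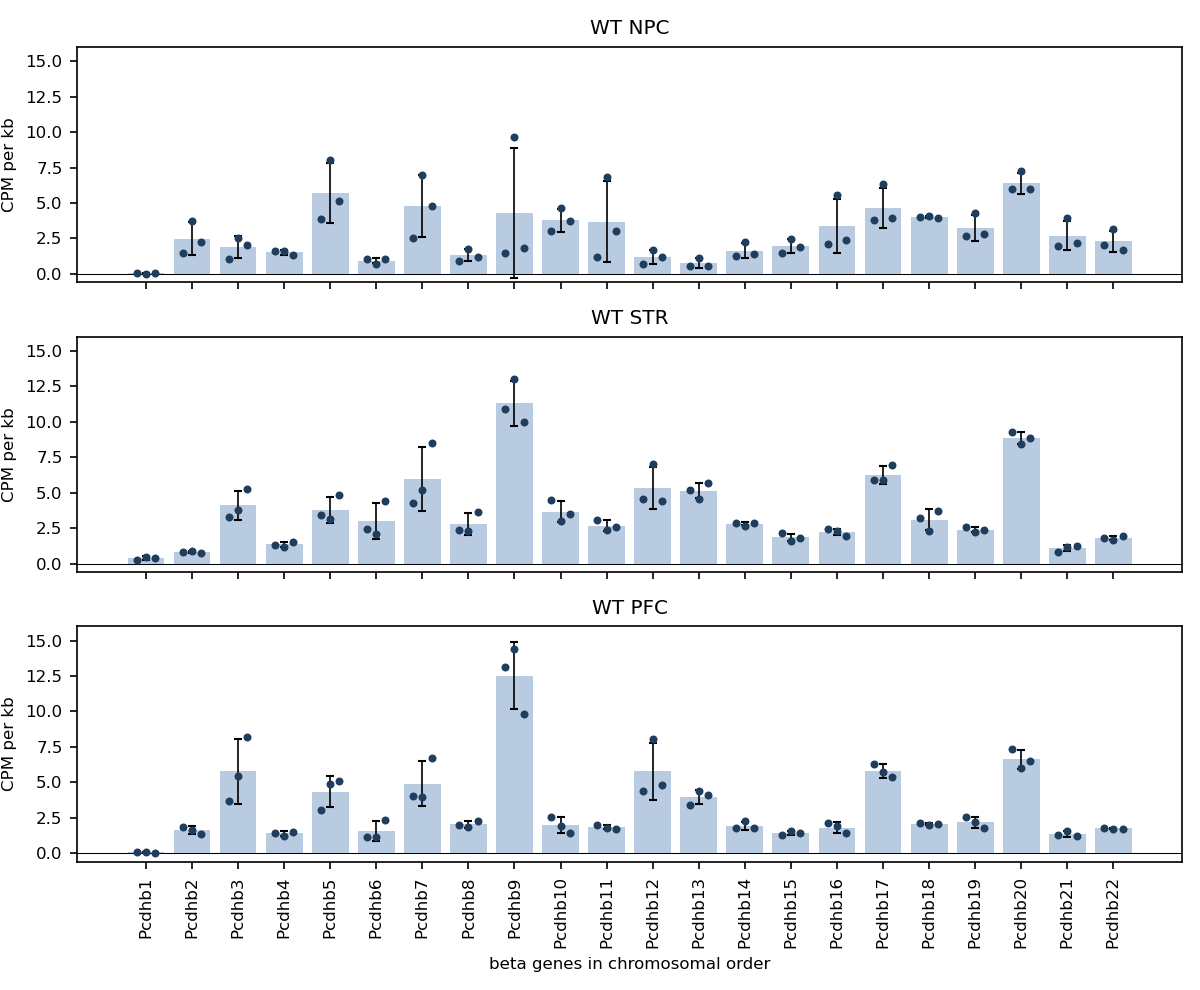
CPM per kilobase of the 22 beta genes in chromosomal order in WT NPC, STR and PFC; bars are means of 3 samples, error bars SD and points single samples. *Pcdhb9* stood at 11.3 ± 1.57 in STR and 12.5 ± 2.36 in PFC, while in NPCs 1 of its 3 samples lay far above the others (9.62 against 1.49 and 1.82).

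NPC samples differed among themselves more than brain samples. *Pcdhb9* gave 4.56, 29.4 and 5.57 CPM in WT replicates 1, 2 and 3 and 6.33, 12.7 and 8.68 CPM in the KO ones. *Pcdhb11* gave 5.29, 30.2 and 13.4 CPM in WT and 8.08, 34.4 and 12.9 CPM in KO. In all, 16 of the 22 beta genes were highest in replicate 2 of both genotypes and none was lowest there in both.

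The alpha row went the other way and was lowest in replicate 2 of both genotypes, at 38.9 CPM in WT and 76.2 CPM in KO against 82.6 to 98.2 CPM in the other 4 samples. Markers of glial cells moved with these values. The 5 oligodendrocyte markers ranged over 39.8 to 1960 CPM in WT and 168 to 2362 CPM in KO NPCs and the 5 astrocyte markers over 664 to 2206 and 1180 to 2695 CPM, each sum being lowest in replicate 2. None of these markers was at 0 in all 3 samples of a genotype, although 2 of the oligodendrocyte markers were at 0 in WT replicate 2. The 6 progenitor markers summed to 4437 to 6034 CPM over the 6 samples. The part of cell composition in the spread of the NPC values was not tested.

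The brain regions were compared to see whether the members differ between PFC and STR. In WT, 7 of the 23 rows tested were called at an FDR under 0.05, 2 higher and 5 lower in PFC, where 24.4% of all genes were called (13% higher and 11.4% lower). In KO, 7 of 24 were called, 1 higher and 6 lower, against 27.7% of all genes (13.8% higher and 13.9% lower). The 6 lower in KO include *Pcdhb1*, which passed the filter only through its STR counts. The members' total counts were near the total shares. By direction, calls lower in PFC were more frequent among members than among all genes, and calls higher in PFC less frequent. The members were not tested as a set, so these counts are no result about the clusters. The alpha row, higher in PFC, and *Pcdhb10*, *Pcdhb11*, *Pcdhb18* and *Pcdhb20*, lower in PFC, were called in WT and again in the KO samples.

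The alpha row differed by 0.38 (log2, SE 0.09, FDR 0.00856) in WT and 0.43 (SE 0.07, FDR 0.00250) in KO. Its KO values were 252, 250 and 257 CPM in PFC and 180, 171 and 205 CPM in STR, so that all PFC samples lay above all STR samples in both genotypes. *Pcdhb2* gave 5.28, 4.71 and 3.76 CPM in WT PFC and 2.20, 2.56 and 2.16 CPM in WT STR, without overlap (0.98, SE 0.23, FDR 0.0106). In KO its values overlapped, at 9.40, 4.81 and 4.41 CPM in PFC and 5.12, 1.55 and 5.30 CPM in STR (0.63, SE 0.45, FDR 0.346).

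Among the genes lower in PFC, *Pcdhb10* gave 7.26, 5.49 and 4.07 CPM in WT PFC and 12.7, 8.60 and 9.96 CPM in WT STR (-0.90, SE 0.23, FDR 0.0166). *Pcdhb18* gave 10.8, 10.1 and 10.3 CPM in WT PFC and 16.3, 11.6 and 18.8 CPM in WT STR (-0.61, SE 0.18, FDR 0.0342). *Pcdhb20*, an abundant member in both regions, gave 26.1, 21.5 and 23.2 CPM in WT PFC and 32.9, 30.0 and 31.4 CPM in WT STR (-0.44, SE 0.11, FDR 0.0144). In each of these 3 genes every PFC sample lay below every STR sample, and the same held in KO, where the log2 differences were -0.78, -0.92 and -0.39.

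*Pcdhb14* differed by -0.55 (SE 0.13, FDR 0.0100) in WT and by -0.51 (SE 0.18, FDR 0.0623) in KO, and *Pcdhb16* by -0.31 (SE 0.18, FDR 0.251) in WT and by -0.58 (SE 0.16, FDR 0.0317) in KO. Whether the region difference of either gene itself differs between genotypes is the interaction given with the KO results. *Pcdhb1* was tested in KO only. It had 6, 1 and 8 reads in KO PFC and 23, 16 and 20 reads in KO STR. Its level was lower in PFC by 1.98 on the log2 scale (SE 0.50, FDR 0.0191). The gene passed the filter only through its STR counts, so that this call is a description and not support for a difference. In WT it had 2, 2 and 0 reads in PFC and 7, 11 and 9 reads in STR, with no overlap between the regions in either genotype.

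*Pcdhb9*, the leading gene per length in both regions, gave 0.13 (SE 0.15, FDR 0.604) in WT and -0.01 (SE 0.08, FDR 0.931) in KO. The gamma row gave -0.03 (SE 0.08, FDR 0.819) and -0.00 (SE 0.09, FDR 0.991). Same-numbered PFC and STR samples deviated together weakly (correlation 0.109 to 0.29). A fit with that number as a block called 10 rows in WT and 9 in KO, and 34.7% and 30.6% of all genes. The block added *Pcdhb3* (0.43, FDR 0.0121), *Pcdhb6* (-0.96, FDR 2.1e-04) and *Pcdhb13* (-0.39, FDR 0.0292) in WT, and *Pcdhb6* (-1.32, FDR 0.00341) and *Pcdhb14* (-0.53, FDR 0.0255) in KO.

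The WT count was 3 without PFC WT replicate 2, where 20.8% of all genes were called, and 3 without STR WT replicate 1 (18.9%). The KO count was 4 without PFC KO replicate 3 (19.4%). Without STR KO replicate 1, the library with hypothalamus markers, 6 rows were called (25% of all genes).

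**Figure D4:**
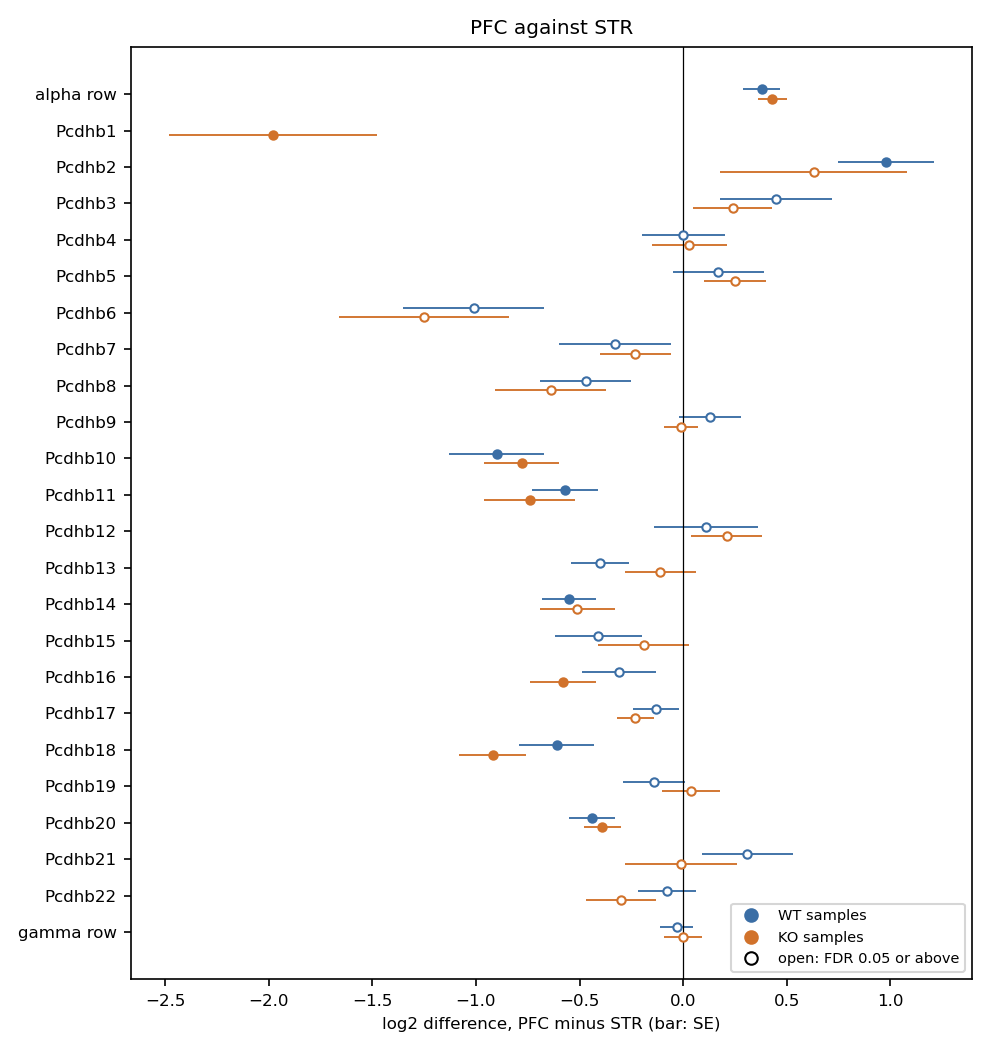
Log2 difference between PFC and STR (PFC minus STR) for each row in chromosomal order, in WT (blue) and KO samples (orange); bars are standard errors, filled points passed the threshold (FDR below 0.05). The alpha row lay at 0.38 and 0.43, the gamma row at -0.03 and -0.00, and *Pcdhb10*, *Pcdhb11*, *Pcdhb18* and *Pcdhb20* below 0 with filled points in both genotypes.

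PFC was also set against NPC. In WT, 8 of 23 rows were called, 4 higher and 4 lower in PFC, where 77.1% of all genes were called (40% higher and 37.1% lower). In KO, 13 of 23 were called, 6 higher and 7 lower, against 81.2% of all genes (42% higher and 39.2% lower). The beta genes called went in both directions. *Pcdhb12* rose from 2.03, 5.01 and 3.67 CPM in WT NPCs to 13.4, 24.5 and 14.6 CPM in WT PFC (2.31, SE 0.37, FDR 6.2e-04), and *Pcdhb13* from 2.03, 4.27 and 2.13 to 12.6, 16.4 and 15.2 CPM (2.41, SE 0.31, FDR 1.6e-04).

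*Pcdhb3* was higher in WT PFC by 1.61 (SE 0.40, FDR 0.00752) and the alpha row by 1.74 (SE 0.30, FDR 0.00135). *Pcdhb18* fell from 20.2, 20.6 and 19.7 CPM in WT NPCs to 10.8, 10.1 and 10.3 CPM in PFC (-0.95, SE 0.13, FDR 2.4e-04). *Pcdhb10* (-0.93, FDR 0.0120), *Pcdhb21* (-0.98, FDR 0.0158) and the gamma row (-2.09, SE 0.12, FDR 1.9e-06) were also lower in PFC. All 8 were called in the same direction in the KO samples, with *Pcdhb9* (1.91, SE 0.23, FDR 9.9e-05) and *Pcdhb17* higher and *Pcdhb11*, *Pcdhb15* and *Pcdhb16* lower in addition. Without NPC replicate 2 the 8 were still called in both genotypes, with 12 calls in WT and 16 in KO. The share of all genes called in those fits was not computed, so these counts are no result about the members. In the same fits the alpha row differed by 1.43 in either genotype and the gamma row by -2.13 in WT and -1.98 in KO. *Pcdhb9*, not called in WT with all samples (1.55, FDR 0.0892), then differed by 2.90 (FDR 2.0e-07).

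KO was compared with WT within each tissue. No member was called in any of the 4 tissues at the 0.05 threshold of the FDR from edgeR, nor by DESeq2 (1.18%, 0.342%, 0.0348% and 0.0199% of all genes in PFC, STR, NPC and ESC) or a likelihood ratio test. The members tested were 23 in PFC, 24 in STR, 23 in NPC and 4 in ESC. The shares of all genes called by the quasi-likelihood test were 0.638%, 0%, 0.00697% and 0%. The share called by the likelihood ratio test is not given here. At an unadjusted p under 0.05 there was 1 member in PFC, 1 in STR, 1 in NPC and none in ESC, against 11.2%, 8.7%, 3.03% and 1.13% of all genes.

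Of the member estimates, 19 of 23 in PFC, 18 of 24 in STR and 15 of 23 in NPC lay within 0.3 of 0 on the log2 scale, and the median standard errors were 0.18, 0.19 and 0.30. The median log2 fold change of the members was -0.01 in PFC, 0.10 in STR and 0.01 in NPC, beside -0.02, 0.00 and 0.00 for all genes. The summed beta level was 284 ± 10.5 CPM (SD, n = 3) in WT and 292 ± 29.9 in KO PFC, 322 ± 23.9 and 339 ± 23.2 in STR, and 262 ± 93.2 and 260 ± 77.1 in NPC, each pair differing by less than the larger SD. A difference below the threshold does not show that the levels are the same.

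*Pcdhb4* had the smallest p in PFC and NPC. It gave 5.28, 4.53 and 5.64 CPM in WT PFC and 7.92, 6.78 and 6.61 CPM in KO PFC, without overlap (0.47, SE 0.18, FDR 0.332 in edgeR). In NPCs it gave 6.10, 6.03 and 4.91 CPM in WT and 6.77, 9.34 and 8.52 CPM in KO, also without overlap (0.54, SE 0.20, FDR 1.0). In STR it gave 4.99, 4.42 and 5.64 CPM in WT and 7.57, 5.55 and 7.45 CPM in KO, and the groups overlapped (0.45, SE 0.21, FDR 0.586). The estimate was thus above 0 in these 3 tissues and failed the correction in each. Without replicate 2 of both genotypes the NPC estimate was 0.49 (FDR 0.904), and over the alternatives run the NPC FDR did not fall below 0.436, its value with the replicate block.

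In STR the smallest p belonged to *Pcdhb1* (1.17, SE 0.35, FDR 0.414). It had 7, 11 and 9 reads in WT and 23, 16 and 20 reads in KO. The gene passed the filter only through its KO counts, so that its estimate and its separation are a description and not support for a difference. All 3 KO samples were above all WT samples, and without STR KO replicate 1 the estimate was 1.07 (FDR 0.935), the FDR ranging from 0.137 to 0.935 over the alternatives run. The next largest STR estimate was that of *Pcdhb2*, at 2.20, 2.56 and 2.16 CPM in WT and 5.12, 1.55 and 5.30 CPM in KO STR (0.79, SE 0.42, FDR 0.653). Its KO samples lay on either side of the WT range.

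The alpha row gave 242, 230 and 233 CPM in WT and 252, 250 and 257 CPM in KO PFC, without overlap, and the difference was 0.09 (SE 0.07, FDR 0.702). The same PFC groups were apart on oligodendrocyte markers, whose sum was 1466 to 1953 CPM in WT and 1211 to 1283 CPM in KO, 3 of the 5 being called lower in KO, and 1 of 5 astrocyte markers was called lower. The part of cell composition in the PFC values was not tested. In STR its difference was 0.07 (SE 0.10, FDR 0.901), in NPC 0.33 (SE 0.30, FDR 1.0) and in ESC 0.06 (SE 0.94, FDR 1.0). The gamma row differed by 0.11 in PFC (SE 0.08, FDR 0.676), 0.10 in STR (SE 0.09, FDR 0.822), 0.04 in NPC (SE 0.09, FDR 1.0) and 0.03 in ESC (SE 0.50, FDR 1.0).

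Groups did not overlap for 3 members in PFC (the alpha row and *Pcdhb4* above, *Pcdhb11* below), 2 in STR (*Pcdhb1* above, *Pcdhb15* below) and 2 in NPC (*Pcdhb4* above, *Pcdhb18* below), against 17.1%, 13.1% and 8.27% of all genes. Same-numbered NPC samples deviated together, so NPC members were also read within pairs. KO was above WT in all 3 pairs for 5 members (the alpha row, *Pcdhb4*, *Pcdhb12*, *Pcdhb13* and *Pcdhb15*) and below in all 3 for 3 (*Pcdhb10*, *Pcdhb18* and *Pcdhb20*). The share of all genes with 1 direction in all 3 pairs was not computed, so these counts are no result about the members. *Pcdhb12*, the member with the largest NPC estimate (0.67, SE 0.38, FDR 1.0), gave 2.03, 5.01 and 3.67 CPM in WT and 4.22, 7.44 and 5.29 CPM in KO. Its groups overlapped, and with the replicate number as a term its difference was 0.69 (SE 0.20, FDR 0.377). In ESCs no member was without overlap, against 20.8% of all genes, and the 4 rows tested there had standard errors of 0.50 to 1.57 in a fit that did not use the replicate number.

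**Figure D5:**
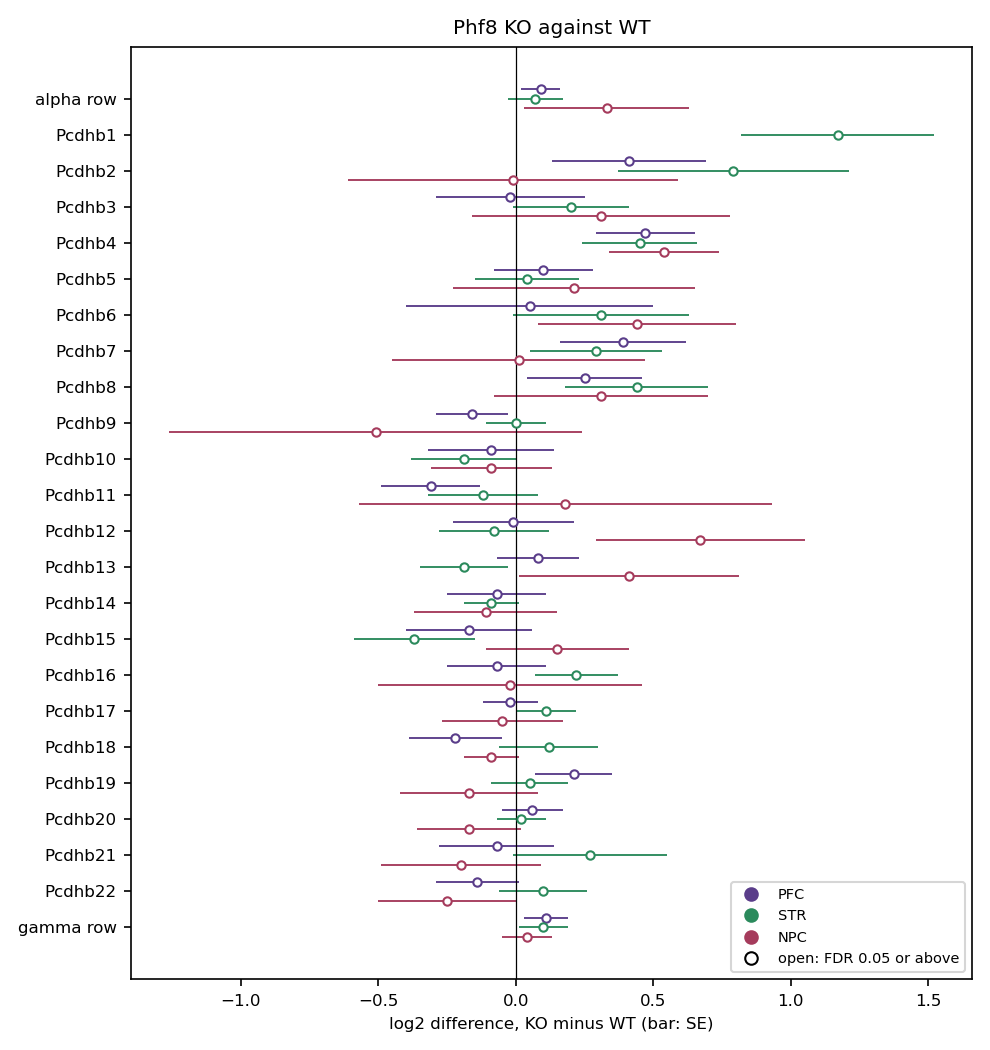
Log2 difference between KO and WT (KO minus WT) for each row in chromosomal order in PFC, STR and NPC; bars are standard errors and all points are open because no FDR was under 0.05. *Pcdhb4* lay at 0.47, 0.45 and 0.54, the gamma row at 0.11, 0.10 and 0.04, and the widest bars were those of NPC.

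The difference of the KO effect between tissues was tested as an interaction. No member was called between PFC and STR by edgeR (24 tested, smallest FDR 0.955, 0.00624% of all genes called) or DESeq2, and none had an unadjusted p under 0.05, against 6.41% of all genes. Between NPC and ESC the interaction says nothing about most members, since 4 rows had enough ESC reads for a KO test there and the median SE of the 23 fitted rows was 1.39. No member was called (0% of all genes) and none had an unadjusted p under 0.05 (1.49% of all genes), and DESeq2 called none.

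Genes known to act on or beside the clusters were read in the same fits. Of 24 regulators of the clusters (CTCF, cohesin and its loaders and release factors, DNA methyltransferases and repressive chromatin factors), none was called between KO and WT in any tissue, and their median log2 fold change lay between -0.06 and 0.04. Between NPCs and ESCs in WT, 3 were called higher and 14 lower, where 34.6% and 36.6% of all genes were. The repressor gene *Rest* fell by 3.07 on the log2 scale (FDR 9.9e-05), the DNA methyltransferase gene *Dnmt3b* fell by 6.21 (FDR 1.1e-04) and *Ctcf* fell by 0.61 (FDR 0.00349). Between PFC and STR in WT 2 of the 24 were called, the cohesin subunit gene *Stag1* (-0.45, FDR 0.0187) and the cohesin-associated *Pds5b* (-0.28, FDR 0.0185), both lower in PFC, where 11.4% of all genes were called lower.

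Of 17 genes for protocadherin processing and binding partners, none was called between KO and WT. Between NPCs and ESCs in WT 12 were called higher and 2 lower, against 34.6% and 36.6% of all genes. Those higher included *Adam10*, a sheddase that cleaves protocadherins (2.44, FDR 5.4e-04), and *Fyn*, a kinase (4.31, FDR 7.1e-05). In PFC against STR in WT 3 were called, all higher in PFC, against 13% of all genes, among them *Ptk2*, the gene of focal adhesion kinase (0.52, FDR 0.00165).

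Of 14 neighbours along the chromosome tested in WT, 3 were called higher and 8 lower in NPCs than in ESCs, against 34.6% and 36.6% of all genes. *Taf7*, a gene of the general transcription machinery that lies between the beta and gamma clusters, fell by 4.47 on the log2 scale (FDR 1.4e-04), and *Hdac3*, a histone deacetylase gene beyond the gamma cluster, rose by 0.56 (FDR 0.00202). None of the neighbours was called between KO and WT in any tissue.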

How the data were processed

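RNA of 22 samples was sequenced on an Illumina instrument after TruSeq preparation. The authors aligned reads to mm10 with STAR and deposited raw HTSeq counts per Ensembl release 75 gene, not normalized; CASAVA 1.7 is named in the submitters' processing notes, and versions of STAR and HTSeq are not given in the sources used here. ESC and NPC counts are named as unstranded, while the setting for brain samples is not stated. Rows that name no gene stayed out of library sizes. Not uniquely aligned reads came to 43.2% to 45.5% of reads in ESC and 33.2% to 34.3% in NPC. They came to 8.01% to 8.61% in STR and 7.62% to 8.9% in PFC. Ambiguous reads were 1.29% to 2.66% of reads. Of the 50-base stretches of a beta transcript, 0% to 12% also occurred in transcripts of other genes. Depth was 5898286 to 15539811 counts per sample, and intervals cover counting error only.

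Groups followed the labels. Members were found by symbol and Ensembl identifier in GENCODE M21; the plan had assumed one row per isoform, which the tables do not have. Counts were tested with edgeR 4.0.16 (R 4.3.3): filterByExpr, TMM, robust quasi-likelihood fit, Benjamini-Hochberg adjustment over all genes, FDR 0.05. SE is the absolute log2 fold change divided by the square root of F. The test was tried on simulated data first. DESeq2 1.42.0, a likelihood ratio test, RLE size factors, other filters, a replicate block and leaving out each sample were alternatives; leaving out replicate 2 of both genotypes in NPC, and NPC to ESC ratios and the NPC beta order without replicate 2, were added after seeing the data. Members and gene lists were chosen with earlier results of these data known. By the rule for naming, members were given in full where called between KO and WT, among the 3 of their cluster with the smallest p in a brain KO comparison, among the 3 highest per kilobase in a tissue or among the 3 with the largest called difference between WT tissues; *Phf8* and list genes were named with their lists. Members named for another reason (overlap between groups, NPC replicate 2, ESC counts, other calls) were chosen after their values were seen.

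Same-numbered samples were checked for pairing by the correlation of their deviations from group means. It was 0.402 to 0.638 for NPC WT with KO and 0.109 to 0.29 for PFC with STR. Differently numbered samples reached 0.246 and 0.0216 in these comparisons. No label states what the numbers stand for, so fits with them as a block were alternatives only. For WT with KO the same-numbered values were -0.0259 to 0.0233 in PFC and -0.0151 to 0.113 in STR. There differently numbered samples reached 0.0339 and 0.175. Both same-numbered ESC pairs gave 0.787, but with 2 samples a group both pairs share a single value, and the ESC numbers were not taken as pairs.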

Additional observations from a re-analysis of the deposited data

How the results depend on the processing

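Among the results followed, none that was called in the main fit or in an alternative changed direction in that alternative. Sign changes between fits that both lacked a call were not counted. Some calls of single members were lost under an alternative. With at least 10 counts in every sample, 1 member was tested and called between NPC and ESC in WT and 1 in KO, in place of 23, since fewer genes could be tested. Leaving out 1 sample at a time gave 3 to 8 called members for PFC against STR in WT and 4 to 9 in KO. The share of all genes called is not given for the highest counts, so this range is no result about the members. The lowest counts were those without PFC WT replicate 2 or STR WT replicate 1 and without PFC KO replicate 3. On raw totals instead of TMM the summed beta level was 371 CPM in WT STR and 314 CPM in WT PFC, and 234 CPM in WT and 231 CPM in KO NPC, which then lay below STR in every sample. Against ESC replicate 1 alone the WT ratio of NPC to ESC moved from 42.1 to 89.5 for the alpha row, from 13.8 to 19.8 for the gamma row and from 13.4 to 45.0 for *Pcdhb22*. The replicate block gave 10 members in WT and 9 in KO for PFC against STR and changed no count of members between KO and WT, which stayed 0 in each tissue. In ESCs the block lowered the standard errors of the alpha and the gamma row to 0.38 and 0.06, with differences of 0.08 (FDR 0.957) and 0.03 (FDR 0.885). Over all genes DESeq2 called 182 between KO and WT in PFC where edgeR called 98, and 53 in STR where edgeR called 0; neither called a member. In ESCs few beta reads were counted, and most beta genes had 3 or fewer reads per genotype. The ESC libraries were not the shallow ones, at 11455757 to 13657534 counts. PFC libraries held 5898286 to 10148073 counts and STR libraries 7159094 to 8594441.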
